A study of Homo sapiens with 6 samples.

Results

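The replication-dependent histone gene clusters are described here through the accessible regions that lie in them. The 4 intervals, on hg19, were chr6:26010000-26300000, chr6:27090000-27120000, chr6:27770000-27870000 and chr1:149775000-149870000. They are called the first, the second and the third HIST1 cluster and the HIST2 cluster below. A member is any peak that overlaps 1 of the intervals by at least 1 bp. This rule took 63 of 127153 peaks of the control list and 67 of 112610 peaks of the shHMGA1 list.

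The samples are DAMI cells, an established human leukaemia line with the labelled disease state MPN/AML. Nothing in a peak list could check its identity. A control lentivirus was given to 3 samples and an shHMGA1 lentivirus, whose short hairpin RNA targets HMGA1, to another 3. All 6 samples shared the line and the lentiviral infection, and the labels name neither the hairpin sequence nor the number of clones. Open chromatin was mapped by ATAC-seq, whose transposase Tn5 cuts accessible DNA and tags the ends. Each group was deposited as 1 peak list, so no difference between the lists could be set against a spread between samples, and none has a p-value. Read depth is unknown, because the lists hold no read counts, and intervals printed below cover counting error only and treat peaks as independent.

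Histones are the proteins around which DNA is wrapped. H2A, H2B, H3 and H4 form the nucleosome core, and H1 binds the linker DNA where it enters and leaves the core. The replication-dependent genes for them are short, lack introns and are switched on together as cells enter S phase, when new chromatin must be packed. They sit in clusters, near which the coactivator NPAT and processing factors gather in a nuclear structure called the histone locus body. HMGA1, the protein targeted by the hairpin, binds AT-rich DNA and is known to compete with linker histone H1 for it.

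The clusters hold 64 of the histone genes listed for this report. By cluster there were 32 genes from H1-1 to H4C8 in the first HIST1 cluster and 5 from H2BC11 to H2AC12 in the second. The third had 16 from H2BC13 to H2BC17, and the HIST2 cluster 11 from H2BC18 to H2AC21. By protein there were 6 genes for linker histone H1, 15 for H2A, 16 for H2B, 13 for H3 and 14 for H4. The first HIST1 cluster holds 5 of the 6 H1 genes (H1-1, H1-2, H1-3, H1-4 and H1-6) and H1-5 lies in the third. In the order of RefSeq genes on GRCh38.p14, 98 of the 161 genes between the HIST1 clusters encode tRNAs, 47 between the first and the second cluster and 51 between the second and the third. Genes were named from that order only. They were not placed on single peaks, since the gene table and the peaks use different builds.

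Promoters of these genes carry short elements that differ by histone type. The 5 examples printed below cover H1, H2B, H3 and H4. The H2A gene H2AC11 has no entry of its own, because it shares 247 of its 250 upstream bases with H2BC11. Each is the 250 bases upstream of the start, read 5′ to 3′ on the gene's strand, from RefSeq on GRCh38.p14. Their coordinates belong to that build and are not comparable with the hg19 peak positions. Capitals mark the octamer ATTTGCAT on either strand, the CCAAT box on either strand and the TATA box TATAAA on the gene's strand. In the H1 promoter they also mark the H1 box AAACACA, and in the H4 promoters the letters GGTCCG, part of a known H4 control element.
H2BC11 (chr6:27132796-27133045, minus strand): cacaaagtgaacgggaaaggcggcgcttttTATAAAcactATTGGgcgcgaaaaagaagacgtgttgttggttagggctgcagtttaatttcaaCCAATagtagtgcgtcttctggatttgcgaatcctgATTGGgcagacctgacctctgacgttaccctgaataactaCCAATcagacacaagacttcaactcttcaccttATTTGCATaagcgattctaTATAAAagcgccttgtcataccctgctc
H4C9 (chr6:27139032-27139281, plus strand): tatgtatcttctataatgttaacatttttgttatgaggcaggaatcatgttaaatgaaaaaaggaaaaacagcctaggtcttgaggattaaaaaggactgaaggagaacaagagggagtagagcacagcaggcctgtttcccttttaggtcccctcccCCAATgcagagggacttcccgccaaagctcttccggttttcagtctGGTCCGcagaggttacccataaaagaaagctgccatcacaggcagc
H3C10 (chr6:27809801-27810050, plus strand): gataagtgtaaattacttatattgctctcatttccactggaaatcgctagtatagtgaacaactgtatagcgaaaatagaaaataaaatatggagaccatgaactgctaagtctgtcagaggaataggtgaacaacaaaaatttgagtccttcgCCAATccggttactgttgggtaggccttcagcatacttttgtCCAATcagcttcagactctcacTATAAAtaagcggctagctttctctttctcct
H1-5 (chr6:27867589-27867838, minus strand): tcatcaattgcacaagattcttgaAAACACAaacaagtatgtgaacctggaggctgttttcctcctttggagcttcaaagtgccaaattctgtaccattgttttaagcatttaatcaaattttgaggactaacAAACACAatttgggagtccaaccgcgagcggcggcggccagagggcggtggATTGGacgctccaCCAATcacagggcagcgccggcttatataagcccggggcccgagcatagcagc
H4C14 (chr1:149832407-149832656, plus strand): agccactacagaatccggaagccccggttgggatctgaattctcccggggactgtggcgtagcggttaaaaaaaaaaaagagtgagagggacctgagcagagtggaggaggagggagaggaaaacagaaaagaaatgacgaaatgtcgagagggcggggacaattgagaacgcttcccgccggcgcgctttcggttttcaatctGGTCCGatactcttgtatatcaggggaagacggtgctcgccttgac

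The H2BC11 promoter shows the layout of an H2B gene. It has 1 octamer followed by a TATA box close to the start, and CCAAT boxes further up on both strands. Another match to TATAAA lies at the far end, next to the start of H2AC11, which points the other way. H4C9 and H4C14 each carry the GGTCCG letters, H1-5 carries 2 H1 boxes, and H3C10 carries 2 CCAAT boxes ahead of a TATA box. Promoter sequences were matched for 59 of the 64 genes, 4 of which have several starts. The octamer, bound by the POU factor OCT1, was found in 13 of 16 H2B and 10 of 14 H2A genes, in 1 of 11 H3 genes and in none of 6 H1 and 12 H4 genes. Over all 27305 genes of the promoter table the share was 2.03%. The CCAAT box, the site of the trimeric factor NF-Y, was found in all 47 matched H1, H2A, H2B and H3 genes and in 3 of 12 H4 genes, against 37% of all genes.

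The TATA box letters occurred in 3 of 6 H1, 10 of 14 H2A, 8 of 16 H2B, 7 of 11 H3 and 6 of 12 H4 genes, against 8.38% of all genes. The H1 box was in 5 of 6 H1 genes and in no matched gene of another histone type, against 3.02% of all genes. GGTCCG was in 11 of 12 H4 genes, 1 H2A and 1 H2B gene, against 6.19%. In 9 pairs an H2A and an H2B gene point away from each other and share 193 to 247 of their 250 upstream bases. There 1 octamer or CCAAT box, each sought on either strand, can serve as a match for both genes.  Of these pairs 7 hold an octamer, while H2BC13 with H2AC13 and H2AC15 with H2BC15 hold none in these windows. A match is only a run of letters and does not show that a factor binds.

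**Figure D1:**
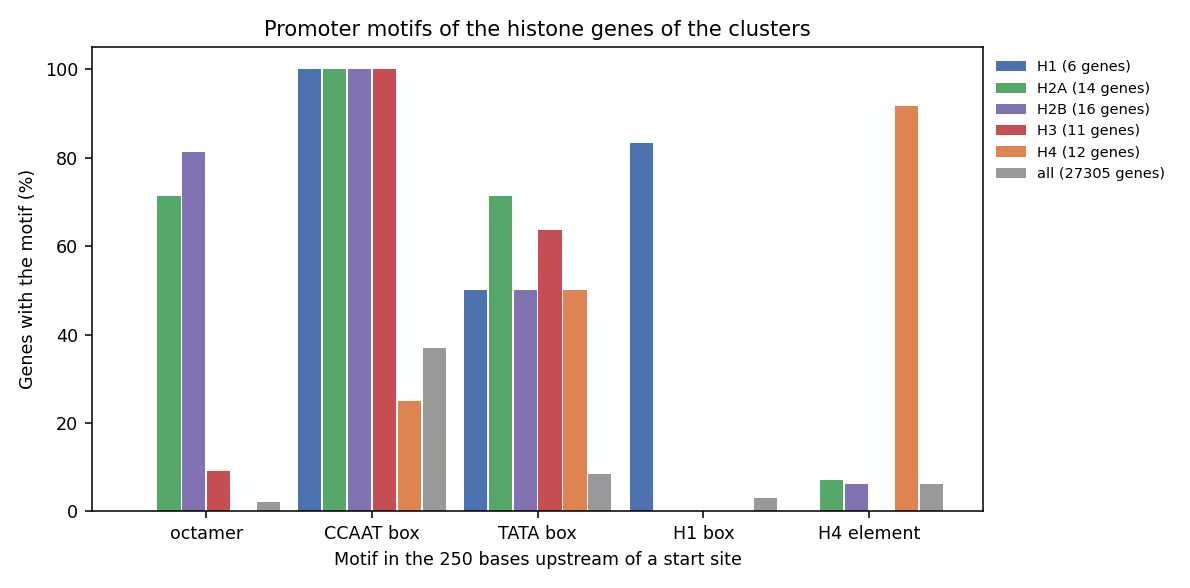
Share of genes (vertical axis, percent) with each motif (horizontal axis) in the 250 bases upstream of a start site, for the matched histone genes of each type and for all 27305 genes of the RefSeq promoter table. The octamer stands out in H2A and H2B genes (10 of 14 and 13 of 16), the H1 box in H1 genes (5 of 6) and the H4 element in H4 genes (11 of 12).

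The histone clusters were dense in accessible DNA under both conditions. Together they span 515 kb, of which 18.8% lay in control peaks and 17.9% in shHMGA1 peaks. The 1 Mb on either side, without bases of any histone cluster, spans 5440 kb and had 3.34% and 3.61% of its bases in peaks. Peaks numbered 122 per Mb in the clusters and 55.1 per Mb in the flanks of the control list, a ratio of 2.22 (95% exact interval 1.66 to 2.92). In the shHMGA1 list they numbered 130 and 55.1 per Mb, a ratio of 2.36 (1.78 to 3.08). Peaks were also wider in the clusters. Median width was 1291 bp in the clusters and 503.5 bp in the flanks of the control list, and 1186 and 574 bp in the shHMGA1 list.

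Peaks of the clusters also had larger areas. The area, the authors' own value, sums the significance of the signal along a peak and so grows with width. It ranks peaks within 1 list and is set between lists only side by side. The median area was 3464 in the clusters and 768 in the flanks of the control list, and 2874 and 798 in the shHMGA1 list. Divided by the width, the medians were 2.60 in the clusters and 1.78 in the flanks of the control list, and 2.57 and 1.72 in the shHMGA1 list. Of the cluster peaks, 30 of 63 control peaks (47.6%, exact interval 34.9 to 60.6) and 28 of 67 shHMGA1 peaks (41.8%, 29.8 to 54.5) were among the top 10% of their list by area. In the flanks the numbers were 20 of 300 (6.67%) and 21 of 300 (7.0%). The median summit significance, as −log10 p, was 8.79 in the clusters and 5.78 in the flanks of the control list, and 8.58 and 5.95 in the shHMGA1 list. Peaks of at least 2 kb numbered 19 of 63 (30.2%) and 16 of 67 (23.9%) in the clusters, against 3 (1.00%) and 4 (1.33%) of 300 in the flanks. Over the whole control and shHMGA1 lists the shares were 4.04% and 4.23%, so these flanks were poorer in such wide peaks than the lists. These contrasts within a list were not tested, since peaks are not replicates.

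Every cluster exceeded its own flanks in all these measures, by different amounts. The second HIST1 cluster, the shortest at 30 kb, was the most densely covered, with 30.2% of its bases in control peaks against 4.21% in its flanks. The third followed with 27.4% against 3.78%, the HIST2 cluster with 18.5% against 2.45%, and the first with 14.8% against 3.53%. In the shHMGA1 list the order was the same, with 29.8%, 26.9%, 17.2% and 13.8%. The HIST2 cluster had the fewest peaks per Mb, 63.2 in control and 73.7 in shHMGA1, and the widest, with medians of 2952.5 and 2104 bp. Its density ratios to the flanks, 1.66 (exact interval 0.591 to 3.79) and 1.96 (0.764 to 4.25), rest on 6 and 7 peaks and their intervals include 1. The covered share there was 7.57 and 6.80 times that of the flanks.

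The flanks differed from side to side. After the HIST2 cluster the control list held 28 peaks in 1 Mb, and before it 48. On chromosome 6 the flank pieces ran from 57.0 to 68.0 control peaks per Mb and from 54.6 to 69.0 in shHMGA1, below the 121 to 200 and 124 to 200 of the HIST1 clusters. Flanks of the HIST1 clusters overlap each other and hold the tRNA genes named above.

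**Figure D2:**
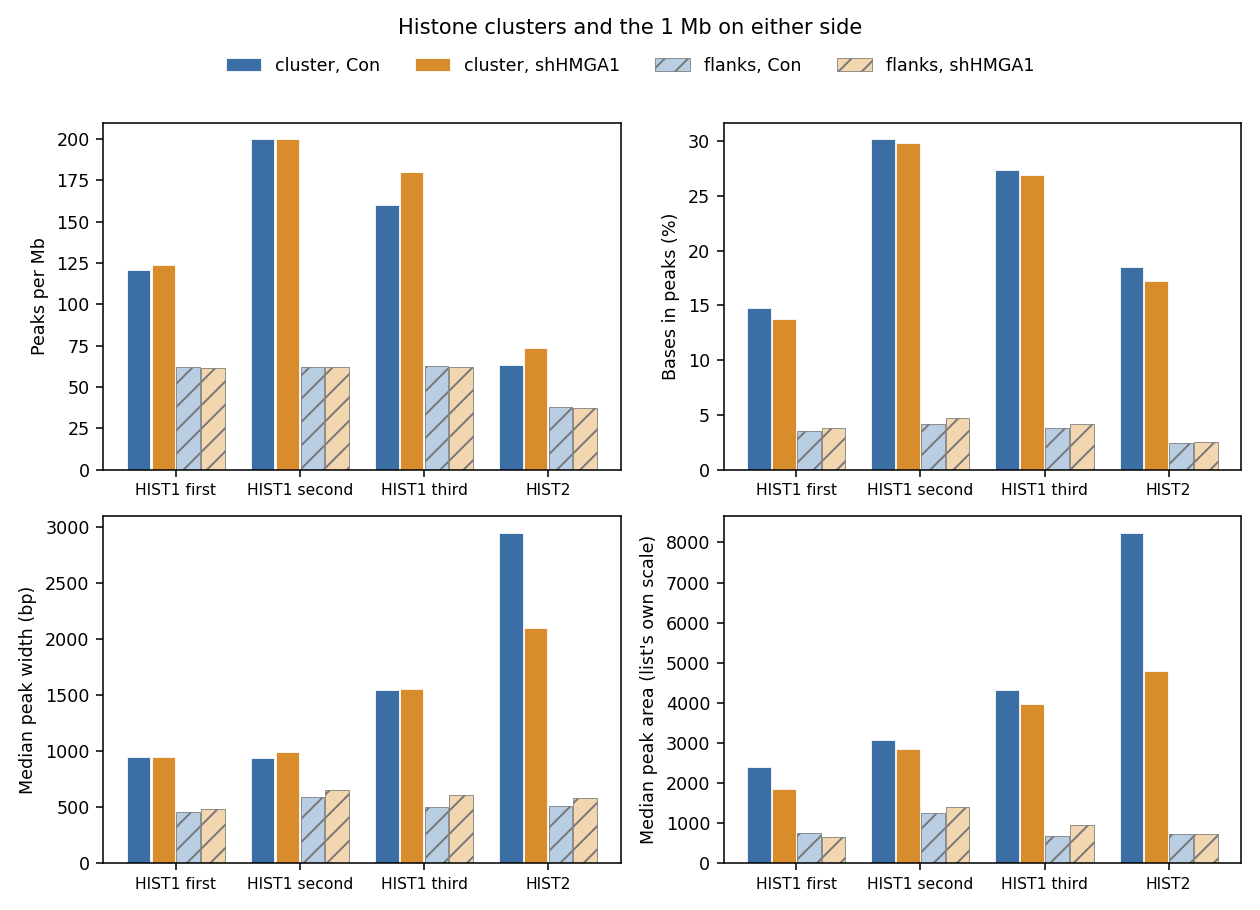
Peaks per Mb, share of bases in peaks, median peak width and median peak area for each histone cluster and for the 1 Mb on either side (hatched), in the control (Con) and shHMGA1 lists. Each bar is 1 value from 1 list, with no replicates, and every cluster bar lies above the flank bar of the same list.

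The first HIST1 cluster, the longest at 290 kb and the one with most H1 genes, held 35 control and 36 shHMGA1 peaks, the widest of them near its start. The widest control peak was chr6:26043285-26046631, 3347 bp wide with an area of 11931, and its shHMGA1 partner measured 3048 bp with an area of 10243. The next, chr6:26054238-26057502, was 3265 bp wide in control and 2996 bp in shHMGA1. The third, chr6:26031149-26034069, was 2921 and 2684 bp wide. These 3 were also the widest of the cluster in the shHMGA1 list, in the same order, and each was narrower there. Peak-free stretches were nearly identical in the lists. The longest ran for 37.2 kb from 26066444 to 26103690 in control and from 26066446 to 26103695 in shHMGA1, and the next measured 29.8 kb in both lists.

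The second HIST1 cluster held 6 peaks in each list. Its widest, chr6:27099246-27102736, was 3491 bp wide in control and 3505 bp in shHMGA1. Its area of 15186 ranked 772 among all control peaks, and its area of 15848 ranked 572 among all shHMGA1 peaks, which made it the largest peak of the 4 clusters by area in both lists. Its position in shHMGA1, chr6:27099233-27102737, was almost that in control. The next, chr6:27113265-27116419, was 3155 bp in control and overlapped a 2371 bp and an 835 bp peak of the shHMGA1 list. The third, chr6:27106881-27108061, measured 1181 and 1147 bp.

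In the third HIST1 cluster 16 control and 18 shHMGA1 peaks were called. The widest peak of all clusters was chr6:27859297-27863604, 4308 bp in control, and it overlapped shHMGA1 peaks of 4029 and 2215 bp. The control peaks next in width, chr6:27832825-27835909 with 3085 bp and chr6:27780234-27783265 with 3032 bp, each also overlapped 2 shHMGA1 peaks. In the shHMGA1 list the peaks next in width were chr6:27804549-27806901 with 2353 bp and chr6:27857190-27859404 with 2215 bp. The longest stretch without a peak measured 25.1 kb in both lists.

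The HIST2 cluster held 6 control and 7 shHMGA1 peaks, and all 6 control peaks were in the top 10% of their list by area. Its 4 inner peaks formed a mirror image. The inner control peaks, chr1:149810837-149815002 and chr1:149821955-149825751, were 4166 and 3797 bp wide with areas of 13438 and 13457. The outer control peaks, chr1:149803672-149805248 and chr1:149831715-149833516, were 1577 and 1802 bp wide with areas of 4087 and 4546. The middles of the inner and of the outer pair lay 151 bp apart in control and 16 bp apart in shHMGA1. In shHMGA1 the inner areas were 12067 and 11563 and the outer ones 4052 and 4512. The genes here are an inverted duplication. RefSeq promoters of H4C14 and H4C15 were identical over 300 of 300 bases, those of H3C14 and H3C15 over 296 of 296 aligned bases, and those of H2AC18 and H2AC19 over 299 of 299, each pair on opposite strands. Reads from such copies cannot be told apart by sequence, and how they were assigned is not given in the sources used here, so the members of each mirrored pair may not be separate measurements. The sixth control peak, chr1:149856272-149860423, was 4152 bp wide and overlapped shHMGA1 peaks of 1338 and 2507 bp.

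**Figure D3:**
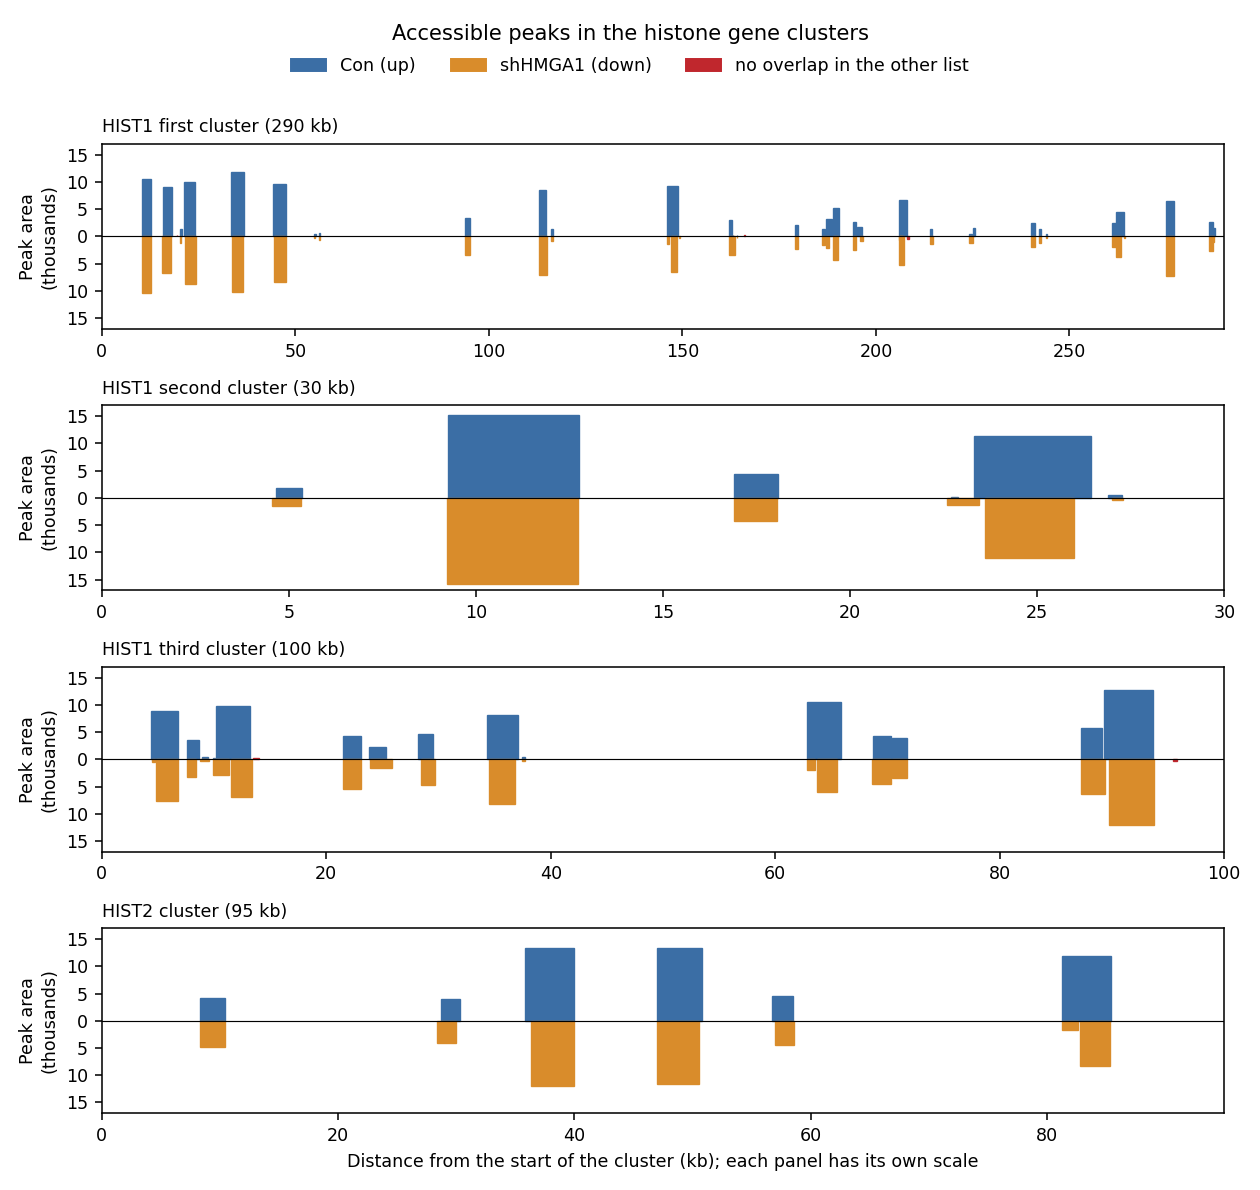
Map of the peaks in each histone cluster. The horizontal axis is the distance from the start of the cluster in kb, the width of a bar is the width of the peak, and its height is the peak area divided by 1000, upward for control and downward for shHMGA1. Peaks without an overlap in the other list are red and small, with areas from 247 to 419, and the other bars face 1 or more bars of the other list, with several wide control peaks facing 2 or 3.

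Nearly all cluster peaks had a counterpart in the other list. Among control peaks, 3 of 63 (4.76%) had no overlap in the shHMGA1 list, where 24.9% of the whole control list had none. Of the shHMGA1 peaks, 2 of 67 (2.99%) had no overlap in the control list, against 14.8% of the whole shHMGA1 list. In the flanks 37 of 300 control peaks (12.3%) and 43 of 300 shHMGA1 peaks (14.3%) had none. Shared cluster peaks thus made up 95.2% (exact interval 86.7 to 99.0) and 97.0% (89.6 to 99.6). Strong peaks are shared throughout the lists, and the clusters are rich in them. All 12715 control peaks and all 11261 shHMGA1 peaks of the top 10% by area were shared, among them the 30 and 28 of the clusters. Among the weaker cluster peaks the shared number was 30 of 33 in control (90.9%) and 37 of 39 in shHMGA1 (94.9%). In the whole lists 72.4% and 83.5% of the weaker peaks were shared. In the flanks it was 243 of 280 (86.8%) in control and 236 of 279 (84.6%) in shHMGA1. The control flanks were thus closer to the clusters than to the whole list, while the shHMGA1 flanks were closer to the whole list. Whether the weaker cluster peaks differ from those elsewhere was not tested.

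The 5 unshared peaks were small. The control-only peaks of the first HIST1 cluster were chr6:26029337-26029475, 139 bp wide with an area of 247, and chr6:26175716-26175907, 192 bp wide with an area of 317. The nearest shHMGA1 peaks were 735 and 1871 bp away. The control-only peak of the third cluster was chr6:27783466-27783976, 511 bp wide with an area of 275, and the nearest shHMGA1 peak lay 158 bp away. The shHMGA1-only peaks were chr6:26217902-26218330 in the first cluster, 429 bp with an area of 419 and 159 bp from a control peak, and chr6:27865427-27865843 in the third, 417 bp with an area of 255 and 1822 bp from one. Their areas lay between 247 and 419, against a smallest area of 200 in the control list. The second HIST1 cluster and the HIST2 cluster had no unshared peak in either list (a count of 0 of 6 allows a share of up to 50%, and 0 of 7 up to 42.9%). After joining overlapping peaks of both lists, the clusters held 60 regions, of which 55 were in both lists, 3 in control only and 2 in shHMGA1 only. Joined regions were not counted in the flanks or over the whole lists, so these numbers have no background.

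Covered length in the clusters was lower in shHMGA1, while the number of peaks differed little. The clusters held 4 more peaks in shHMGA1, a ratio of 1.06 (exact interval 0.743 to 1.52), with 6 in each list in the second HIST1 cluster. That interval takes the lists as separate counts, although 55 of the 60 joined regions were in both. Above the joined median summit significance the numbers were 53 and 53. The clusters had fewer covered bases, 92.2 kb against 97.1 kb in control, a ratio of 0.95. In the flanks the number was 300 in both lists, and covered length was 196 kb in shHMGA1 against 182 kb in control, a ratio of 1.08. Over the whole lists the ratios were 0.886 for peaks and 0.909 for covered bases. Covered length was thus lower in shHMGA1 by less in the clusters than over the whole lists. Covered length was lower in shHMGA1 in each of the clusters, with ratios of 0.931 in the first, 0.987 in the second and 0.982 in the third HIST1 cluster and 0.928 in the HIST2 cluster. In the flanks of each of them it was higher, with ratios from 1.03 to 1.12. The 2 lists had 86.3 kb in common in the clusters, 83.7% of the bases in either, against 69.3% in the flanks and 63.0% over the whole lists.

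Some control peaks overlapped more than 1 shHMGA1 peak. Of the control peaks, 9 of 63 overlapped 2 or more shHMGA1 peaks, against 3.58% of the whole control list. Of the shHMGA1 peaks, 5 of 67 overlapped 2 or more control peaks, against 3.72% of the whole list. Wide peaks meet several partners more often. Among peaks of at least 2 kb, 8 of 19 control peaks in the clusters overlapped 2 or more shHMGA1 peaks (42.1%, exact interval 20.3 to 66.5), against 30.7% of such peaks in the whole control list. In the other direction it was 1 of 16 (6.25%, 0.158 to 30.2), against 27.3%. The first interval includes its background and the second does too, so each share taken alone was within counting error of the lists.

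The shHMGA1 peaks that met the same control peak lie close together by the way they were chosen. Between shHMGA1 peaks that overlapped the same control peak the gaps were 101 to 282 bp. Not all of them lay within it. At chr6:27113265-27116419, chr6:27780234-27783265 and chr6:27859297-27863604 the overlapping shHMGA1 peaks measured 3206, 3334 and 6244 bp in sum, more than the 3155, 3032 and 4308 bp of the control peak. At the last of these the 2215 bp peak, chr6:27857190-27859404, also overlapped another control peak of 1857 bp. The control peak chr6:26156422-26159213 in the first HIST1 cluster, 2792 bp wide, met 3 shHMGA1 peaks of 601, 1625 and 269 bp with gaps of 159 and 265 bp. In the HIST2 cluster the gap within the 4152 bp control peak was 101 bp, and at chr6:27832825-27835909 in the third HIST1 cluster it was 127 bp. Joining peaks within 150 bp left 56 control and 58 shHMGA1 peaks, a ratio of 1.04, and a ratio of covered bases of 0.952. The part of such splits in the difference between the lists was not tested.

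Peaks that overlapped 1 to 1 were on balance slightly narrower in shHMGA1. There were 44 such pairs in the clusters, 28 narrower and 16 wider in shHMGA1, so 63.6% were narrower (exact interval 47.8 to 77.6), against 54.6% of the 83581 pairs of the whole lists. In the flanks 88 of 219 pairs (40.2%, 33.6 to 47.0) were narrower. The median log2 ratio of the width in shHMGA1 to that in control was -0.07 in the clusters (binomial interval of the median -0.12 to 0.00), 0.04 in the flanks (0.02 to 0.07) and -0.03 over the whole lists. The interval of the clusters thus includes both the whole-list share and a ratio of no change, while that of the flanks lies on the side of wider peaks. The difference between clusters and flanks was not tested, since peaks of 1 list are not replicates.

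Few pairs changed width by much. A change of at least 1.5 times to the narrower side was seen in 4 of 44 pairs (9.09%), against 13.8% of all pairs, and to the wider side in 0 of 44, which allows up to 6.82%, against 9.80%. Of the 33 cluster pairs with a control peak under 2 kb, 4 were narrower by that much (12.1%). Over the whole lists it was 14.1% of such pairs. In 0 of the 33 the peak was wider by that much, which allows up to 9.09%, against 10.2%. Of the 11 with a control peak of at least 2 kb, 0 changed by that much in either direction, which allows up to 27.3%. In the whole lists 3.69% of such pairs were narrower and 0.101% wider by that much. These limits for counts of 0 are rougher than the exact intervals. Whether widening was rarer in the clusters than in the whole lists was not tested. All 4 narrowed pairs were in the first HIST1 cluster. The strongest was a weak site, chr6:26064864-26065397, with 534 bp in control and 191 bp in shHMGA1 (log2 ratio -1.48) and areas of 402 and 257. The pair that widened most there was chr6:26224177-26224682, with 506 bp in control and 753 bp in shHMGA1 (0.57). It fell just short of 1.5 times, as did a pair of the third HIST1 cluster (0.55), so the count of 0 depends on that threshold.

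The share of narrower pairs rested on few pairs in each cluster. It was 18 of 26 in the first HIST1 cluster (exact interval 48.2% to 85.7%, median log2 ratio -0.11). In the second it was 2 of 4 (6.76% to 93.2%, -0.02) and in the third 4 of 9 (13.7% to 78.8%, 0.01). In the HIST2 cluster it was 4 of 5 (28.4% to 99.5%, -0.11). These intervals overlap each other, and all include the 54.6% of the whole lists. In the second HIST1 cluster the extremes were small, from 369 to 301 bp at chr6:27116893-27117261 (-0.29) to 698 and 794 bp at chr6:27094659-27095356 (0.19). In the third they were 1110 and 843 bp at chr6:27777577-27778686 (-0.40), and 544 and 795 bp at chr6:27778914-27779457 (0.55). In the HIST2 cluster the pair that narrowed most was chr1:149810837-149815002 with 4166 and 3686 bp (-0.18). The 1 wider pair there was all but equal, at chr1:149803672-149805248 with 1577 and 1579 bp (0.00). Among the 11 pairs of the clusters with a control peak of at least 2 kb, 9 were narrower in shHMGA1 with a median of -0.12 (-0.18 to 0.00). Over the whole lists 61.8% of the 2978 such pairs were narrower, with a median of -0.03.

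**Figure D4:**
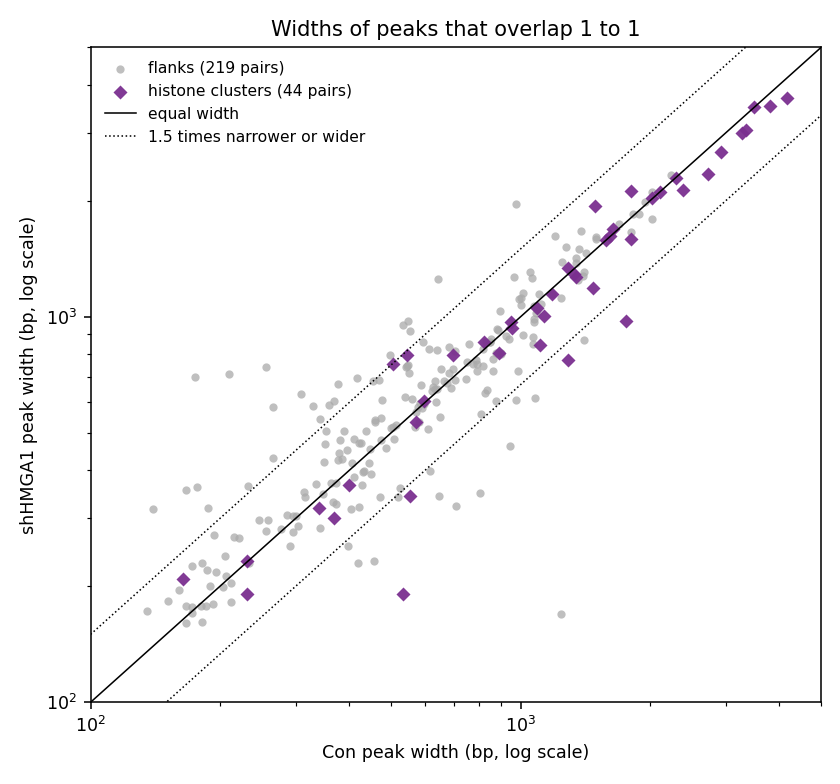
Peak width in control (horizontal axis, bp, log scale) against width in shHMGA1 (vertical axis, bp, log scale) for peaks that overlap 1 to 1, 44 in the histone clusters and 219 in their flanks. The solid line marks equal width and the dotted lines a change of 1.5 times. The cluster pairs reach widths over 2 kb, lie close to the solid line, and 28 of 44 fall below it.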

How the data were processed

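ATAC-seq of DAMI cells was deposited as 1 narrowPeak list per group of 3 samples, and each list was tied to its group by its name. The submitters' processing notes name Genrich and hg19. The aligner, the treatment of reads with several matches and the joining of samples remain not given in the sources used here. Deposited positions are whole bases. The authors' signal in column 7 is an area under the significance curve, their summit value is an unadjusted −log10 p-value, and their deposited score reaches at most 1000. The q-value column is -1 throughout and was not used.

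Peaks overlapping the clusters by 1 bp were compared with the 1 Mb on either side. A peak touching a cluster was not counted in a flank. Shares have 95% exact Clopper-Pearson intervals, density ratios the same interval on the share of peaks, and medians an order-statistic interval. Where a count was 0, the limit is 3 counts of the total, a rougher bound than the exact intervals. No test between lists was possible with 1 list per group. The overlap, pairing and coverage functions were tested on simulated peaks. Named peaks were the 3 widest of each list in each cluster, the unshared ones, and the 1 to 1 pairs with the highest and lowest width ratio. The mirrored pairs, split peaks and peak-free stretches were named after their values were seen. Members, intervals and lists were chosen with earlier results of these data known, and the H1 and H4 motifs were added last. Of 66 genes first listed, H2AC1 and H2BC1 were left out, since SLC17A genes separate them from the first cluster. Python 3.11.15 was used with scipy 1.17.1, pandas 2.3.3, matplotlib 3.10.9 and numpy 2.4.6. Alternatives were a higher summit significance, lists of equal length, merging within 150 bp, placing by summit, flanks of 500 kb and 2 Mb, reciprocal overlap of 50% and a distance of 500 bp. The series text also names SET-2 cells, which were not analysed here.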

Additional observations from a re-analysis of the deposited data

How the results depend on the processing

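The alternatives on ratios between the lists and on 1 to 1 widths were chosen after seeing the data. Over the 4 clusters together, 61 of 67 values stayed within their counting interval or within 1.5 times. A reciprocal overlap of 50% lowered the shared share to 84.1% of control and 79.1% of shHMGA1 cluster peaks. Above the joined median summit −log10 p of 5.24, and with 56305 peaks from each list, 100% of the shHMGA1 cluster peaks were shared. Of the control cluster peaks 90.6% and 94.1% were shared under these settings, below the 95.2% of the main setting. No shared share of the flanks or the whole lists was taken under any of these alternatives, so these values have no background. The control density relative to the flanks rose to 3.08 and 3.39. Density stayed above that of the flanks in both lists under each alternative run, and the covered length of all clusters together stayed lower in shHMGA1, with ratios of 0.905 to 0.952. The ratio of peak numbers ranged from 1.00, under the stricter threshold, to 1.06. For single clusters 9 of 264 values changed direction. The ratio of peak numbers in the first HIST1 cluster became 0.966 under the stricter threshold and under equal numbers. The ratio of covered bases in the second became 1.01 with equal numbers. In the third the median log2 width ratio of 0.01 became -0.09 under the stricter threshold and equal numbers and -0.03 with merging, and the narrower share of 44.4% became 57.1% and 54.5%. The cause was not tested. No paired analysis was possible because the 3 samples of a group enter a single list, and for that reason no replicate could be left out. Depth is unknown, so its bearing on the 5 unshared peaks was not tested, and peaks in the HIST2 copies may share reads.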
